A study of Mus musculus with 2 samples.

Results

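The genes described here encode the protein parts of the mitochondrial ribosome, and they were taken by symbol: every gene named Mrpl or Mrps followed by a number, with an optional letter, in the gene lists of both libraries. There were 77 such genes among the 27998 in the files, 48 of the large subunit (Mrpl) and 29 of the small subunit (Mrps). The study compared haematopoietic stem and progenitor cells with and without Trmt6, which encodes a subunit of the enzyme that methylates an adenosine in the T loop of tRNAs. One single-cell library was made per genotype from bone marrow of 3-month-old mice, after lineage depletion and sorting of Lin- Sca-1+ c-Kit+ cells. The labels give the genotype of the Trmt6 WT library as Trmt6fl/fl with no Cre, and that of the Trmt6 cKO library as Trmt6fl/fl, MX1-cre. The study's own description of the single-cell experiment differs from the labels, since it gives the control as Trmt6+/+ with Mx1-Cre and has mice of both genotypes treated with pIpC, an interferon inducer that switches the Mx1 promoter on. The strains were kept on a C57BL/6 background. Mx1-Cre is active in all interferon-responsive cells and is not limited to stem cells, and the number of animals behind each library is not given in the sources used here. With 1 library per group, the differences between genotypes could not be checked against replicates. Each interval given is at the 95% level and covers error of counting alone, except that of the median member ratio. That one comes from the spread over members and treats them as independent, although they share their libraries. None of the log2 ratios carries a test.

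Mitochondria hold ribosomes of their own, descended from those of the bacterial ancestor, which make the few respiratory chain subunits that mitochondrial DNA encodes. All of their proteins are encoded in the nucleus, made in the cytosol and imported, and then assembled on ribosomal RNAs made inside the organelle. Some of these proteins have bacterial counterparts, while others were added during the evolution of mitochondria. Blood stem cells are known for low translation rates and for a change in mitochondrial activity as they begin to differentiate.

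Promoter sequences show what the members share and do not share upstream of their start sites. RefSeq promoters (GRCm38.p6, 250 bases before and 50 bases after the start) were matched by symbol for 68 of the 77 members. Searched on both strands, the ETS-type sequence CCGGAAG was in 25 of the 68 members (36.8%), against 9.93% of all 27025 genes with a promoter and 23.2% of the 7120 genes with a level of at least 5 CPM (UMIs of a gene over all UMIs of the library, times 1e+06) in a library. The NRF1-type sequence GCGCANGCGC was in 13 members (19.1%), against 5.19% of all genes and 13.5% of expressed genes. The YY1-type sequence AANATGGCG was in 10 members (14.7%), against 2.76% and 7.33%. The E-box CACGTG was in 5 members (7.35%, against 8.09% and 12.4%), and TATAAA was in 5 members (7.35%, against 15.7% and 8.06%). The amino acid response sequence TGATGNAA was in none of the 68, against 4.51% of all genes and 2.63% of expressed genes. A promoter with several motifs counted under each, and a match describes these letters only.

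The 120 bases before the start held at least 1 of these motifs in 27 promoters of members, and 6 of these stretches overlapped no annotated exon. They are printed 5′ to 3′ on the strand of the gene, with the motifs in capitals, and are ordered from the member with the largest log2 ratio of cKO over WT to the one with the smallest, so that the sequences can be set beside the values. The sites are ETS-type in Mrps22, Mrpl52, Mrpl34 and Mrpl48, an E-box in Mrpl20 and 2 NRF1-type sites in Mrpl45. The stretches lie at chr9:98601680-98601799 on the minus strand (Mrps22), chr4:155802758-155802877 on the plus strand (Mrpl20), chr14:54426789-54426908 on the plus strand (Mrpl52), chr11:97315596-97315715 on the plus strand (Mrpl45), chr8:71464806-71464925 on the plus strand (Mrpl34) and chr7:100583131-100583250 on the minus strand (Mrpl48). The start is the RefSeq one, which for Mrpl48 lies 25171 bases inside the GENCODE gene, so that its stretch precedes an internal start, while for the other 5 it lies within 33 bases of the GENCODE start.
Mrps22: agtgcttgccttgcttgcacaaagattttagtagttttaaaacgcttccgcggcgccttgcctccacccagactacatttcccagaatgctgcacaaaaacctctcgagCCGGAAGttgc
Mrpl20: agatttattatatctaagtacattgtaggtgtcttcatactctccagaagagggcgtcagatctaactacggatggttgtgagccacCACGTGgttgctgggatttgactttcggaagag
Mrpl52: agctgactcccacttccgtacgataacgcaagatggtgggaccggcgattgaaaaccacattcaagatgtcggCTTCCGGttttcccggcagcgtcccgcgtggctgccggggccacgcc
Mrpl45: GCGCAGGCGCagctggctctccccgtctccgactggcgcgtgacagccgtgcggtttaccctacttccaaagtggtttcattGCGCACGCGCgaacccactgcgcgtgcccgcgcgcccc
Mrpl34: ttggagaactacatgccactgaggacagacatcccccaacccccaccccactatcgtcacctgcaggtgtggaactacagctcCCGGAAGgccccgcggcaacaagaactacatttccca
Mrpl48: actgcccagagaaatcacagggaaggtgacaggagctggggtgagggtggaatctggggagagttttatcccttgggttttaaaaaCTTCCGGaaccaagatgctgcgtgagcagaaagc

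The median log2 ratios with and without a motif differed most for the motifs held by few members. The median log2 ratio was 0.15 with the ETS-type sequence and 0.16 without, and these medians were the same for the NRF1-type sequence. It was 0.14 with and 0.15 without the YY1-type sequence, and the 5 members with an E-box had a median of 0.28 against 0.15. For the 5 members with TATAAA the difference had the other sign, with 0.03 against 0.17. These medians are over all 68 matched members, among them Mrpl53 (ETS-type), which was below 5 CPM in each library.

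Many members share their start region with a neighbour. For 18 of the 77 (23.4%), the start of another coding gene on the opposite strand lay within 1000 bases upstream (GENCODE M21), against 1071 of the 8950 coding genes (12%) at 5 CPM or more. Of the 13 pairs in which both genes had a ratio, 7 had the same sign and 6 opposite signs. In 3 pairs chosen after their values were seen, Mrps18b starts 45 bases from Ppp1r10 and was higher in the cKO library by 0.91 on the log2 scale, while Ppp1r10, a regulatory subunit of protein phosphatase 1, was lower, at -0.98. Mrpl51 starts 100 bases from Ncapd2, a condensin subunit, and their log2 ratios were 0.08 and -0.66. Mrpl30 and Mitd1, with starts 66 bases apart, had 0.19 and 0.29.

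The libraries stood apart in depth and in cell makeup. The WT library held 8869 barcodes and 47991455 UMIs, and the cKO library held 9260 barcodes and 98323201 UMIs. After the limits on cells and the removal of doublets, 8147 WT cells with a median of 4121 UMIs and 8483 cKO cells with a median of 10013 UMIs remained. Of the barcode sequences, 24 occurred in both libraries, and 21 of these belonged to kept cells in both. Both sort markers were detected in both libraries, with Kit at 63.7 CPM in WT and 21.6 in cKO and Ly6a at 34.8 and 142. Trmt6 itself was at 63.7 and 50.5 CPM; a 3′ tag need not lie in the deleted part of the gene, so this level does not check the genotype. Of the kept cells, 191 in WT and 184 in cKO carried markers of a mature cell type, among them 99 neutrophil-like cells in WT and 0 in cKO.

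The members as a whole took a slightly larger share of the UMIs in the cKO library. Their summed level was 9416 CPM (9387 to 9446) in WT and 10152 (10131 to 10173) in cKO, which is 0.11 (0.10 to 0.11) on the log2 scale. Large subunit genes summed to 6103 and 6546 CPM (log2 ratio 0.10, 0.09 to 0.11), and small subunit genes to 3314 and 3606 (0.12, 0.11 to 0.13). The balance between the subunits was nearly equal in the libraries, with 1.84 large subunit UMIs for each small subunit UMI in WT and 1.82 in cKO. In absolute terms a WT cell gave on average 48.0 member UMIs and a cKO cell 104.0, in libraries whose median cells also differed in depth.

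Of the members, 76 reached 5 CPM in a library. Mrpl53, a protein found only in mitochondria, was the exception, at 0.843 CPM in WT and 0.483 in cKO, and is left out of the counts that follow. The median log2 ratio over the 76 was 0.17 (0.08 to 0.28, an interval over the ordered members), against -0.07 over all 9154 genes at that level and 0.01 over the 2354 genes between the 10th and 90th percentile of member levels. Higher levels in the cKO library were found for 59 of the 76 (77.6%), against 43.1% of all genes and 51.2% of genes in that range of levels. With 2 other ways of scaling the libraries, the count rose to 65 (85.5%, by TMM) and 67 (88.2%, by median of ratios), while the share over all genes became 52.9% and 53.4% and the all-gene median 0.03 under both. Both scalings raise every log2 ratio over all kept cells by 0.10, so the gap between the member median and the all-gene median was 0.24 in each case.

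The spread of the members was narrower than that of all genes. The interquartile range of the member ratios ran from 0.01 to 0.37, a width of 0.36, and that of all genes from -0.37 to 0.20, a width of 0.57. Ratios above 0.5 were found for 9 members (11.8%), against a background of 9.03% of all genes and 8.03% of genes in the range of member levels. This count depended on the scaling: 16 of 76 members were above 0.5 by TMM, 17 by median of ratios and 15 with a total without mitochondrial and ribosomal protein genes, against 12.8%, 12.9% and 12.5% of all genes. With cells thinned to 2000 UMIs it was 14. No member was below -0.5, against 17.6% of all genes and 10.8% of genes in the range of member levels. The ranked plot of ratios shows a continuous slope, with most members slightly above zero and a short upper tail headed by 3 small subunit genes.

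**Figure D1:**
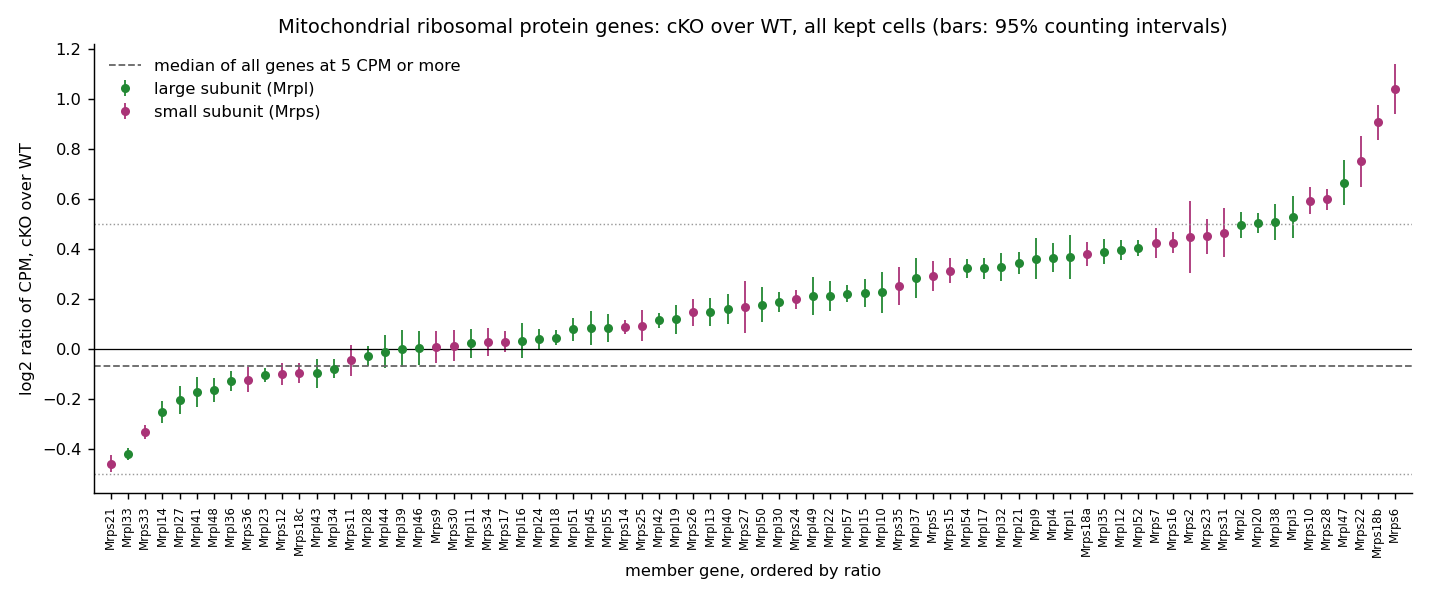
Log2 ratio of CPM, cKO over WT, for the 76 members at 5 CPM or more over all kept cells, ordered by ratio (points, coloured by subunit; bars, 95% counting intervals; dashed line, median of all genes; dotted lines, 0.5 in either direction). Mrps6 is highest at 1.04 and Mrps21 lowest at -0.46, and 59 of the points lie above 0.

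The upper tail was led by genes of the small subunit. Mrps6 (bS6m, the counterpart of a bacterial platform protein; chr16:92058270-92112227) was at 24.7 CPM in WT and 50.7 in cKO, or 1.04 (0.94 to 1.14) on the log2 scale. Its span holds Slc5a3, a myo-inositol transporter gene on the same strand, whose reads can be shared with it; Slc5a3 was at 1.49 and 2.72 CPM. Mrps18b (mS40, one of the 3 relatives of bacterial S18; chr17:35910379-35916389) was at 50.9 and 95.3 CPM, a log2 ratio of 0.91 (0.84 to 0.97). Mrps22 (mS22, found only in mitochondria) was at 24.3 and 40.9 CPM, a ratio of 0.75 (0.65 to 0.85). These genes were all at low to moderate levels in WT, and their counting intervals did not reach the members' median.

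The next members in order came from both subunits. Mrpl47 (uL29m, near the exit of the polypeptide tunnel) was at 32.2 CPM in WT and 51.0 in cKO (0.67, 0.58 to 0.75). Mrps28 (bS1m) was at 148 and 225 CPM (0.60, 0.56 to 0.64), and Mrps10 (uS10m) at 83.4 and 126 CPM (0.59, 0.54 to 0.65). Of these 3, Mrps28 had the highest level in WT. Mrpl3 (uL3m, a core protein of the large subunit) was at 37.6 and 54.2 CPM (0.53, 0.45 to 0.61), Mrpl38 (mL38) at 52.5 and 74.6 (0.51, 0.44 to 0.58), and Mrpl20 (bL20m) at 155 and 220 (0.50, 0.46 to 0.54). Mrpl2, just short of 0.5 before rounding, was at 96.3 and 136 CPM (0.50, 0.44 to 0.55).

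The 2 members with the lowest ratios have short annotated transcripts, of 488 and 478 bases, but Mrpl52, with the shortest at 463 bases, had a positive ratio of 0.40. Mrps21 (bS21m; chr3:95862634-95871519) was at 278 CPM in WT and 203 in cKO, or -0.46 (-0.49 to -0.42) on the log2 scale. Mrpl33 (bL33m, a small protein of the large subunit; chr5:31596935-31664384) was at 626 and 469 CPM (-0.42, -0.44 to -0.40). The ratio of Mrpl33 was smaller in size, at -0.23, with cells thinned to 2000 UMIs and, at -0.22, with each cell scaled before averaging. Mrps33 (mS33) was at 370 and 294 CPM (-0.33, -0.36 to -0.30). They were followed by Mrpl14 (uL14m, which lies at the interface of the subunits) at 168 and 141 CPM (-0.25, -0.29 to -0.21), which became -0.42 with the same mix of gates in both libraries. Mrpl27 (bL27m), Mrpl41, Mrpl48 and Mrpl36 (bL36m) had ratios of -0.20, -0.17, -0.16 and -0.13.

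Level and, more weakly, length moved with the ratios of the members. Across the 76 members the log2 ratio had a Pearson correlation of -0.40 and a Spearman correlation of -0.30 with the log2 of the mean level, whereas over all 9154 genes these were 0.06 and 0.17; the points share their 2 libraries, and genes are not independent replicates. With the log2 of transcript length, the members' ratios had correlations of 0.17 (Pearson) and 0.22 (Spearman), and those of the 8947 genes with a length had -0.07 and -0.22. The 7 members with an annotated transcript under 700 bases had a median of -0.08, and the all-gene median in that class was -0.19. In the classes of 700 to 1000, 1000 to 1500, 1500 to 2500 and over 2500 bases, the member medians were 0.06, 0.15, 0.21 and 0.22, and those of all genes 0.03, 0.06, 0.04 and -0.13. The member median was above the all-gene median in every one of the 5 classes, and in the longest class 19 of 20 members were higher in cKO, against 36.6% of all genes of that class. The part of transcript length in the ratios was not tested.

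Levels ranged widely within the module. UMIs of a 3′ tag library count captured transcript ends and were not divided by length, so these are values on the CPM scale, not amounts of protein. Mrpl33, Mrps14 (uS14m, 352 CPM in WT and 374 in cKO), Mrps33 and Mrpl23 (uL23m, 346 and 322) had the highest mean CPM. The lowest of the 76 were Mrps2 (uS2m), with 12.7 and 17.3 CPM, Mrps27, with 25.8 and 29.0, Mrps31, with 27.4 and 37.8, and Mrps22. All 4 of these low members belong to the small subunit and all had a positive ratio.

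Members with a bacterial counterpart and members found only in mitochondria were compared next. The 48 with a counterpart had a median log2 ratio of 0.22, with 37 higher in cKO, and the 28 measured members found only in mitochondria had a median of 0.13, with 22 higher. Above 0.5 were 7 of the first kind (14.6%) and 2 of the second (7.14%), against 9.03% of all genes. The summed level went from 6506 to 7025 CPM in the first class and from 2910 to 3127 in the second, log2 ratios of 0.11 and 0.10.

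The 3 relatives of bacterial S18 had different ratios. Mrps18c (bS18m) and Mrps18b (mS40) lie in the small subunit, while Mrps18a (mL66) lies in the large subunit in spite of its symbol. Mrps18c was at 187 CPM in WT and 175 in cKO (-0.10, -0.14 to -0.06), Mrps18a at 109 and 141 (0.38, 0.33 to 0.43), and Mrps18b at 50.9 and 95.3. Mrps18b made up 14.7% of the UMIs of the 3 genes in WT and 23.1% in cKO, while Mrps18c went from 54.0% to 42.5%. Mrps18c turned slightly positive with scaling by TMM or by median of ratios, whereas Mrps18b and Mrps18a stayed higher under each scaling. The counts by subunit in this text follow the symbols.

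Further members have a particular place or role. Mrps30 (mL65), which also lies in the large subunit, was at 76.6 and 77.3 CPM (0.01, -0.05 to 0.07). Mrps36, now regarded as a part of the 2-oxoglutarate dehydrogenase complex, was at 115 and 105 CPM (-0.12, -0.17 to -0.07). Its ratio was -0.01 with cells thinned to 2000 UMIs and -0.07 with each cell scaled before averaging. Mrpl12 (bL12m), whose stalk on the large subunit receives translation factors, was at 168 and 222 CPM (0.40, 0.36 to 0.44). Mrpl58, the peptidyl-tRNA hydrolase of the large subunit, is listed under its older symbol Ict1, which the rule does not match, and was at 87.8 and 101 CPM.

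Single cells showed the same small shift at equal depth. For this, 2000 UMIs were drawn from each cell, without the 205 cells of WT and 105 of cKO that held fewer. The median cell then held 18 member UMIs in WT (interquartile range 15 to 21) and 20 in cKO (16 to 23), against 37 and 101 without thinning. The SD over cells was 4.89 in WT and 5.09 in cKO, while Poisson counting alone would give 4.23 and 4.45, so that most of the variation between cells was of the size of counting error. The median number of different members seen per thinned cell was 15 and 16. The histograms overlap over nearly their whole range and differ by a shift of their centre.

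**Figure D2:**
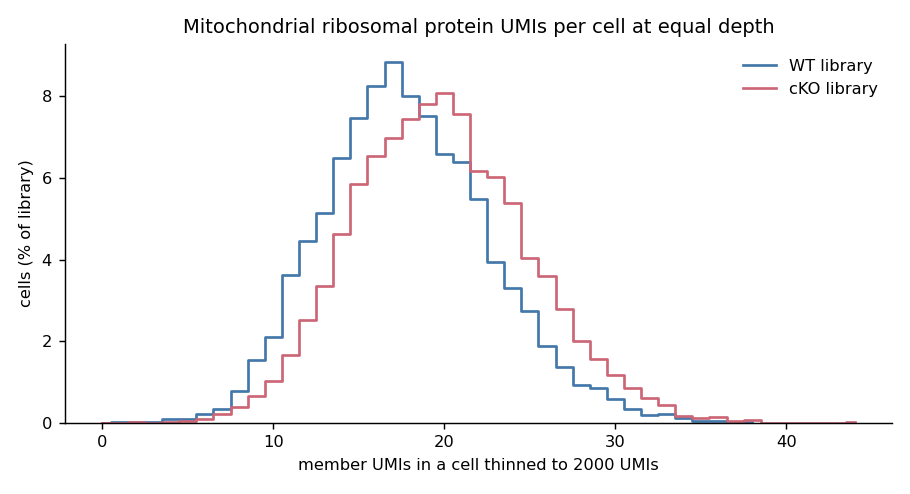
Member UMIs per cell after thinning to 2000 UMIs, as a percentage of the cells of each library (7942 WT cells, 8378 cKO cells). The medians are 18 and 20, and both distributions span about the same width.

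Cells were next gated by lineage markers, since the makeup of the libraries differed. A cell entered a gate when at least 2 of 10 markers had a UMI after thinning, and more than in any other list. The HSC gate held 298 WT and 929 cKO cells, the lymphoid gate 355 and 168, the granulocyte-monocyte gate 4235 and 834, and the erythroid gate 254 and 1178, and 2414 and 5047 cells were in no gate. The megakaryocyte gate, with 38 cKO cells, was below the 50 cells set for comparison. Markers within a gate also differed between libraries: in the granulocyte-monocyte gate the 10 markers, led by genes such as Mpo and Elane, summed to 10042 CPM in WT and 2810 in cKO with none at 0, and in the HSC gate the 10 HSC markers to 1301 and 790. The HSC gate also held transcripts of the other lists: the 10 erythroid markers summed to 1812 CPM in WT and 1189 in cKO, more than the HSC markers, the 10 granulocyte-monocyte markers to 1238 and 516 and the 10 megakaryocyte markers to 261 and 74.2. The 10 erythroid markers in the erythroid gate summed to 3356 and 2096 CPM with none at 0, and their median log2 ratio, -2.72, was lower than that of the granulocyte-monocyte markers in their own gate, -2.46. The 10 lymphoid markers in the lymphoid gate summed to 2173 and 1633 CPM. Markers of mature cells differed too: the 7 B cell markers in the lymphoid gate summed to 93.2 CPM in WT, with 3 at 0, and 284 in cKO, with none at 0. The 8 neutrophil markers in the granulocyte-monocyte gate summed to 1232 CPM in WT, with none at 0, and 33.2 in cKO, with 4 at 0, and in the other 3 gates they summed to between 219 and 311 in WT and at most 3.40 in cKO. The part of these marker differences in the ratios was not tested.

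The order of the gates was the same in both libraries. In WT the members summed to 8670 CPM (8523 to 8819) in the lymphoid gate, 8836 (8652 to 9023) in the HSC gate, 9706 (9668 to 9744) in the granulocyte-monocyte gate and 10021 (9845 to 10199) in the erythroid gate. In cKO the same gates had 9135 (8982 to 9291), 9567 (9498 to 9637), 10240 (10180 to 10301) and 10438 (10381 to 10496). In WT the intervals of the lymphoid and HSC gates overlap, so their order is within counting error there. The gates also differed in their share of cycling cells, given below, and the part of this in their order was not tested.

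**Figure D3:**
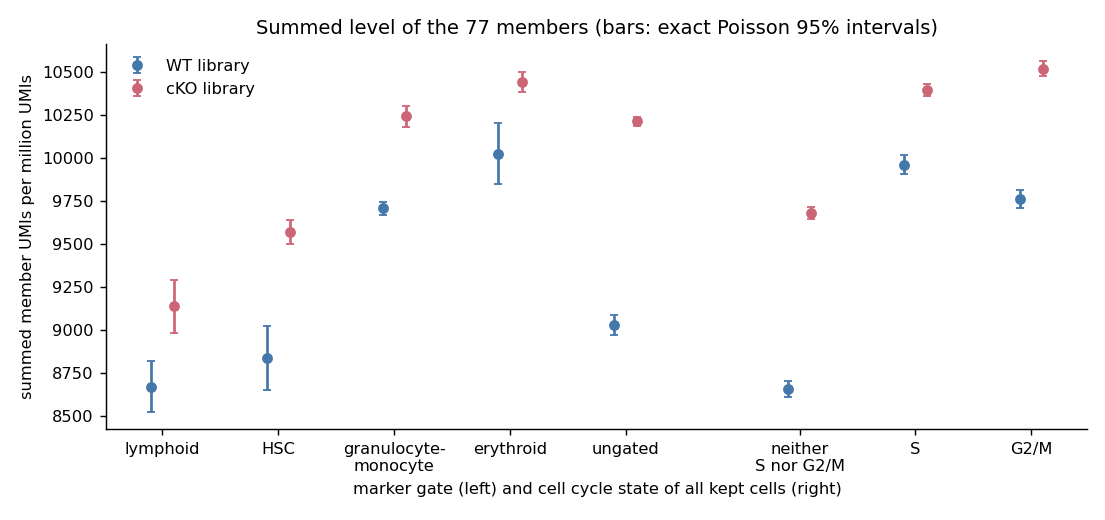
Summed level of the 77 members, in CPM, by marker gate and by cell cycle state in each library (points; bars, exact Poisson 95% intervals; the axis does not start at 0). The cKO point is above the WT point in all 8 populations, and both libraries have the lymphoid gate lowest and the erythroid gate highest among the 4 gates.

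Within each gate the summed members were higher in the cKO library. The log2 ratio of the summed members was 0.11 (0.08 to 0.15) in the HSC gate, 0.08 (0.04 to 0.11) in the lymphoid gate, 0.08 (0.07 to 0.09) in the granulocyte-monocyte gate and 0.06 (0.03 to 0.09) in the erythroid gate. Scaled by total UMIs in this way, the cells in no gate had the largest ratio, 0.18 (0.17 to 0.19), and no other scaling was run for them. These sizes depended on the processing. By TMM and by median of ratios the HSC value became 0.31 under both, the lymphoid 0.16 and 0.15, the granulocyte-monocyte 0.14 and 0.16, and the erythroid 0.18 under both. With equal cell limits in both libraries the erythroid value was 0.02, and with at least 3 markers for a gate the lymphoid value turned to -0.003. In the erythroid gate the large subunit genes had 0.08 (0.05 to 0.12) and the small subunit genes 0.01 (-0.03 to 0.06). In the HSC gate the ratio of the sum was 0.15 (0.11 to 0.19) for the members with a bacterial counterpart and 0.04 (-0.01 to 0.10) for those found only in mitochondria. The median ratios of single members of the classes were nearly equal there (both 0.15), and in HSC gate cells called neither S nor G2/M the sums had 0.12 (0.07 to 0.17) and 0.08 (0.01 to 0.15). The sums in the cells of no lineage gate had 0.20 (0.19 to 0.21) and 0.13 (0.11 to 0.15). In the granulocyte-monocyte gate the values were 0.07 and 0.08, in the lymphoid gate 0.07 and 0.08 and in the erythroid gate 0.07 and 0.03, with intervals that overlap between the classes.

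Single members were compared with the background in each gate. Above 0.5 were 14 of 76 in the HSC gate (18.4%, background 12.5%) and 11 in the lymphoid gate (14.5%, background 16.1%). In the granulocyte-monocyte gate 9 were (11.8%, background 9.54%) and in the erythroid gate 11 (14.5%, background 14%). Among genes in the range of member levels, the shares above 0.5 were 9.69%, 13.2%, 9.50% and 9.19% in the same order. Below -0.5 were 0 members in the HSC gate, against 27.8% of all 9682 genes and 17.1% of genes in the range of member levels. In the lymphoid gate 2 were (background 26.4%, in the range 15.5%), in the granulocyte-monocyte gate 2 (19.3%, in the range 12.2%) and in the erythroid gate 0 (23.1%, in the range 13.9%). In the HSC gate the member median was 0.15 and the all-gene median -0.15. Over the 4 gates, 33 of the 76 members were higher in cKO in each gate, 8 were lower in each and 35 had both signs. Higher in each of the 4 were 43.4% of members, against 19.5% of all genes and 29.0% of genes in the range of member levels, and lower in each were 10.5%, against 28.6% and 28.4%.

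The leading small subunit genes kept their direction in the gates. Mrps6 had log2 ratios of 0.98 (0.35 to 1.70) in the HSC gate, 0.84 in the lymphoid, 1.15 in the granulocyte-monocyte and 0.84 in the erythroid gate. Mrps18b had 0.81 (0.37 to 1.29), 1.45, 1.02 and 0.85 in the same order, and Mrps10 had 0.69, 0.77, 0.62 and 0.63. Their levels were low in the smaller gates, with 21 UMIs of Mrps6 in the WT cells of the HSC gate. Mrps2, between Mrps18b and Mrps10 in the HSC gate at 0.77 (-0.14 to 1.87), rested on 10 UMIs in WT. Mrps21 was lower in each gate, with -0.36, -0.48, -0.64 and -0.46, and so was Mrps33, with -0.39, -0.38, -0.40 and -0.19.

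Several members, some of them abundant, were among the 35 with both signs over the gates. Mrpl33, in the WT library, was at 437 CPM in the HSC gate, 551 in the lymphoid, 702 in the granulocyte-monocyte and 458 in the erythroid gate. In cKO the same gates had 469, 406, 472 and 495 CPM. The log2 ratios were 0.10 (-0.04 to 0.25) and 0.11 (-0.01 to 0.24) in the HSC and erythroid gates, against -0.44 (-0.59 to -0.29) and -0.57 (-0.62 to -0.53) in the lymphoid and granulocyte-monocyte gates. Mrpl41 likewise had -0.41 (-0.74 to -0.07) in the HSC gate and -0.28 in the granulocyte-monocyte gate, but 0.21 and 0.22 in the lymphoid and erythroid gates. Mrpl52, at 0.40 over all kept cells, had 0.41 (0.35 to 0.48) in the granulocyte-monocyte gate and 0.12 in the lymphoid gate, but -0.06 and -0.23 (-0.36 to -0.10) in the HSC and erythroid gates. Mrps14, Mrpl18 and Mrpl42, with overall ratios between 0.05 and 0.11, had ratios of both signs with intervals that include 0 in each gate. Counting intervals on opposite sides of 0 in different gates were found for 5 of the 76 members (6.58%), against a background of 3.83% of all genes. These differences between gates were not tested.

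**Figure D4:**
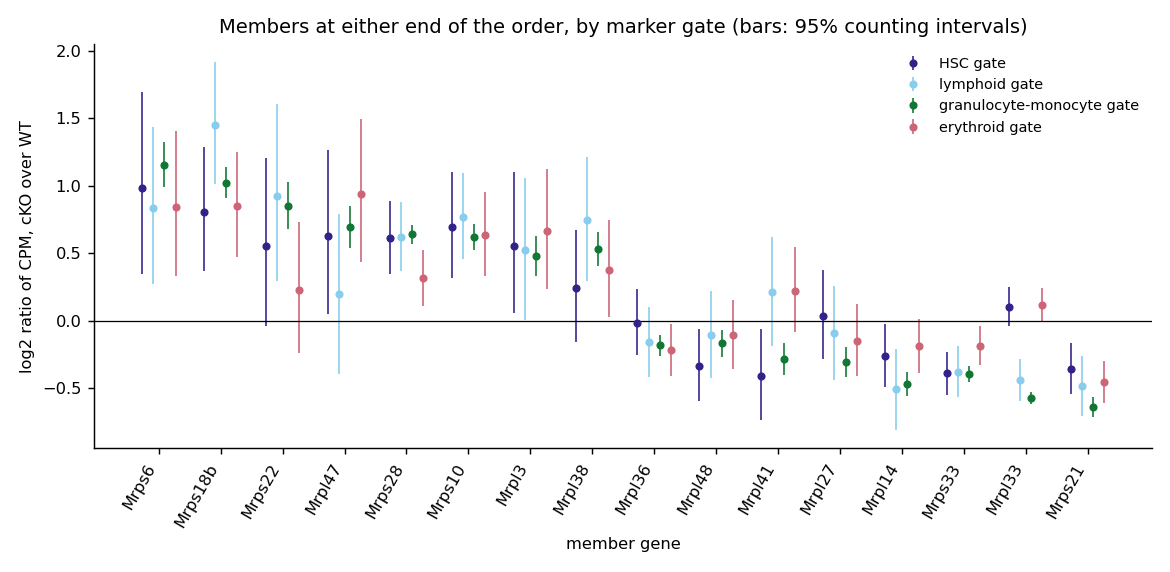
Log2 ratio of CPM, cKO over WT, in 4 marker gates for the 8 members with the highest and the 8 with the lowest ratio over all kept cells (points; bars, 95% counting intervals). Mrps6, Mrps18b, Mrps28 and Mrps10 lie above 0 in each gate and Mrps21 and Mrps33 below 0, while Mrpl33 and Mrpl41 lie on both sides.

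Differences between gates within a library do not depend on comparing the libraries, so each library gives its own value. From the HSC to the erythroid gate, 55 of 76 members (72.4%) were higher in both libraries. Higher in both were 24.5% of all genes and 37.3% of the genes in the range of member levels. Lower in both were 7 members, against 41.0% of all genes. From the HSC to the granulocyte-monocyte gate 47 (61.8%) were higher in both, against 26.1% and 38.1%, and 6 were lower in both, against 45.9% of all genes. From the HSC to the lymphoid gate 19 of 76 were higher in both, against 24.3% and 29.1%, a share near that of other genes. Lower in both were 27, against 40.8% of all genes. These 3 comparisons share the cells of the HSC gate. Cells called neither S nor G2/M (defined below) were 227 of 298, 1829 of 4235 and 116 of 254 in the HSC, granulocyte-monocyte and erythroid gates of WT. In cKO they were 529 of 929, 294 of 834 and 432 of 1178. At 2000 UMIs per cell, mean member UMIs were 17.3, 18.3 and 18.5 in WT and 18.8, 20.1 and 20.5 in cKO. In cells called neither they were 16.7, 16.9 and 17.8 in WT and 17.9, 19.1 and 19.1 in cKO. The part of cycle state was not tested.

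The members that follow were chosen after their values were seen. Mrpl12 was at 125 CPM in the HSC gate, 182 in the granulocyte-monocyte gate and 183 in the erythroid gate of the WT library, and at 170, 246 and 230 in cKO. Its log2 ratios of granulocyte-monocyte over HSC were 0.55 (0.29 to 0.82) and 0.54 (0.44 to 0.63). Mrps10 was at 59.3 CPM in the HSC gate and 75.4 in the erythroid gate of WT, and at 96.1 and 117 in cKO. Mrpl12 was thus higher in both of these committed gates in each library, but the gates were not matched for cycle state. It was also higher in S cells than in cells called neither, by 0.53 in WT and 0.34 in cKO on the log2 scale. Mrps10 was lowest in the HSC gate of each library, although in WT its erythroid and HSC levels rest on 93 and 59 UMIs.

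Mrpl52, a large subunit protein found only in mitochondria, was lower in the granulocyte-monocyte and lymphoid gates than in the HSC gate. It was at 374 CPM in the HSC gate of WT, against 216 in the granulocyte-monocyte gate (log2 ratio -0.79) and 242 in the lymphoid gate (-0.63). In cKO it was at 358, 288 (-0.32) and 264 (-0.44). From the HSC to the erythroid gate the ratios were 0.15 (-0.04 to 0.35) in WT and -0.02 (-0.09 to 0.05) in cKO. Mrps25 was lower in the lymphoid than in the HSC gate by similar amounts, with 47.6 against 74.4 CPM in WT and 51.4 against 81.7 in cKO.

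Members were also higher in cells with cell cycle transcripts. Cells were called G2/M when at least 3 of 12 mitotic genes had a UMI after thinning, S when they were not G2/M and at least 3 of 13 replication genes had one, and neither otherwise. Free RNA in droplets can add to such calls, and its part was not tested. In WT the 3886 cells called neither summed to 8657 CPM of members, the 2106 S cells to 9959 and the 1950 G2/M cells to 9761. In cKO the values were 9677 (3616 cells), 10391 (3018 cells) and 10515 (1744 cells). The difference between the libraries was largest in the cells called neither (0.16, 0.15 to 0.17) and smallest in S (0.06, 0.05 to 0.07).

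The difference between cycle states ran through most of the module. In S cells 58 of 76 members (76.3%) were higher than in cells called neither in both libraries, against 32.3% of all genes and 46.2% of genes in the range of member levels. In G2/M cells the count was 56 (73.7%), against 28.8% and 39.4%. These 2 comparisons share the cells called neither. Within the HSC gate, the cells called neither still had a log2 ratio of cKO over WT of 0.11 (0.07 to 0.15) for the summed members, and within the granulocyte-monocyte gate one of 0.14 (0.12 to 0.16). Within the erythroid gate the value was 0.07 (0.02 to 0.11). Within the lymphoid gate it was 0.04 (-0.02 to 0.10), which was not distinguishable from zero at this depth.

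Mrpl18 (uL18m, which binds the central protuberance of the large subunit) had the largest cycle difference in both libraries. It was at 234 CPM in cells called neither and 369 in S cells of WT, a log2 ratio of 0.66 (0.60 to 0.73), and at 261 and 360 in cKO (0.46, 0.42 to 0.50). Mrpl12 followed, at 143 and 206 CPM in WT and 197 and 251 in cKO. Mrpl24 and Mrpl9 were lower in S cells in both libraries, Mrpl9 with 42.9 and 33.7 CPM in WT and 51.4 and 47.3 in cKO. All 4 of these are proteins of the large subunit with bacterial counterparts.

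**Figure D5:**
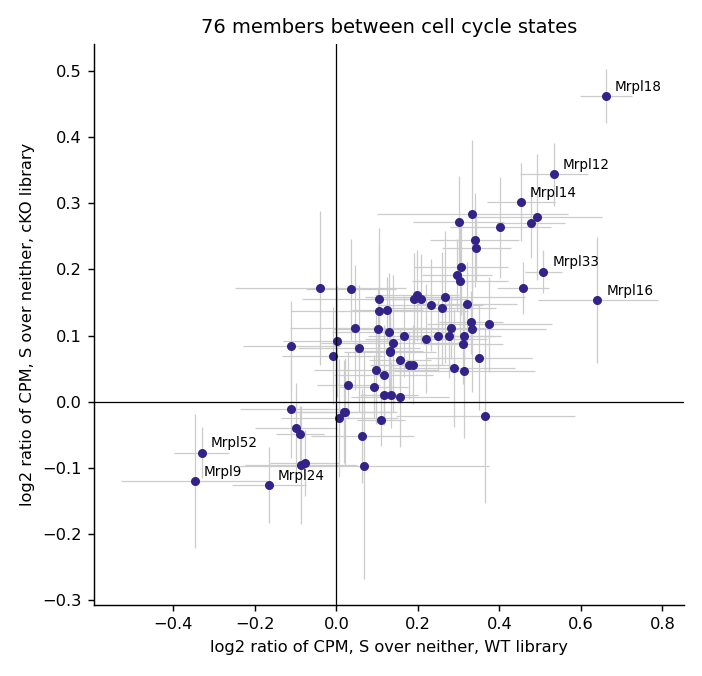
Log2 ratio of CPM in S cells over cells called neither, for 76 members, in the WT library (horizontal axis) and in the cKO library (vertical axis; bars, 95% counting intervals). In both libraries 58 members are above 0 and 8 below 0, against 32.3% and 46.2% of all genes. Mrpl18 has the largest ratio in each, 0.66 and 0.46.

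Genes that work with the mitochondrial ribosome had ratios of both signs. The 5 ribosome proteins with other symbols had a median log2 ratio of 0.13, and 4 were higher in cKO, among them Dap3 (66.2 and 78.7 CPM), a GTP-binding protein of the small subunit. Of 11 translation factors 7 were higher, with a median of 0.18: the elongation factor genes Tufm and Tsfm had 0.31 and 0.50, and the initiation factor genes Mtif2 and Mtif3 had -0.22 and -0.43. In the HSC gate 3 of 11 translation factors were higher (median -0.16), in the lymphoid gate 5 (-0.06) and in G2/M cells 4 (-0.03), against 39.3%, 44.2% and 45.1% of all genes. Of 19 assembly factors 13 were higher (median 0.13), with Mterf3 at 0.37 and Rbfa, which binds the small subunit rRNA, at -0.31. The share of all genes higher in cKO was 43.1%. The summed level of the assembly factors was 442 CPM in WT and 446 in cKO (0.02, -0.01 to 0.04). In the lymphoid gate 6 of these 19 were higher (median -0.14). The 17 mitochondrial aminoacyl-tRNA synthetases had a median of 0.03 with 10 higher, and their ratios ran from -0.22 to 0.59 (Yars2).

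The mitochondrial chaperone and protease list had the largest shift among these lists. Its 12 genes had a median of 0.29, 9 were higher in cKO and 6 were above 0.5. Hspa9, the mitochondrial Hsp70, was at 160 CPM in WT and 388 in cKO (1.28), Dnaja3, its J-domain partner, at 28.8 and 56.3 (0.97), and Hspe1, the mitochondrial co-chaperonin, at 514 and 860 (0.74). Above 0.5 were 9.03% of all genes.

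Genes of the cytosolic ribosome, of the respiratory chain and of the mitochondrial genome were set beside the members. Of 84 measured cytosolic ribosomal protein genes 75 were higher in cKO, with a median of 0.29. Of 81 measured nuclear respiratory chain genes 56 were higher, with a median of 0.09. The mRNAs that the mitochondrial ribosome translates had lower levels in cKO: their sum was 23582 CPM in WT and 18346 in cKO (-0.36), and 0 of 12 at the minimum level were higher. The limit on mitochondrial reads per cell was 10% in WT and 5% in cKO, and the part of this limit in the last difference was not tested.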

How the data were processed

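Per the labels, lineage-depleted bone marrow was sorted and run on 10x Genomics droplets. The labels and the study's methods name different versions of the kit. The submitters' processing notes name Cell Ranger 6.0.0 and the mm10 build; the authors deposited filtered matrices of UMI counts per gene and cell. The other deposited columns, gene symbols and cell barcodes, served as names. Here, cells were kept with more than 200 genes and fewer than 4000 (WT) or 4500 (cKO). They also had less than 10% (WT) or 5% (cKO) mitochondrial UMIs and less than 5% haemoglobin UMIs, as the study states. Doublets were scored against simulated ones and removed at 0.8% per 1000 barcodes (7.10% in WT, 7.41% in cKO). The limits left 8763 WT and 9151 cKO cells before this step and 8147 and 8483 after it, fewer than the study kept with DoubletFinder. UMIs were summed over cells and divided by the library's kept total (41536089 and 86904073 UMIs) to give CPM with exact Poisson intervals. Log2 ratios used 0.5 prior counts, with exact conditional binomial intervals at 95%. Genes at 5 CPM in a library were compared, and 0.5 on the log2 scale was the limit for a call. Gates, cycle states and cell counts used cells thinned to 2000 UMIs. Of these steps, the log2 ratio, its interval and the limit for a call were tested on simulated counts. The members, gene lists, markers and limits were chosen with earlier results of these data known. The text names the 8 highest and 8 lowest log2 ratios, the 4 highest and 4 lowest levels, the 3 highest and 3 lowest ratios in the HSC gate among members with at least 50 UMIs there over both libraries, and members with a second place or role. Protein names come from general knowledge. Python 3.11.15, numpy 2.4.6, scipy 1.17.1, pandas 2.3.3, scikit-learn 1.9.0 and matplotlib 3.10.9 were used.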

Additional observations from a re-analysis of the deposited data

Results flagged for a closer look

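Mrps36, the member now placed in the 2-oxoglutarate dehydrogenase complex, had log2 ratios of cKO over WT on opposite sides of zero in 2 gates. In the HSC gate it was at 78.4 CPM in WT and 101 in cKO, a ratio of 0.36 (0.03 to 0.72). In the granulocyte-monocyte gate it was at 120 and 107 CPM, a ratio of -0.16 (-0.26 to -0.06). The HSC value rests on 78 UMIs in WT, and the difference between the gates was not tested. Mrpl52 had 0.41 (0.35 to 0.48) in the granulocyte-monocyte gate and -0.23 (-0.36 to -0.10) in the erythroid gate. Mrpl19 had 0.38 (0.01 to 0.74) in the lymphoid gate and 0.22 (0.11 to 0.33) in the granulocyte-monocyte gate, against -0.30 (-0.56 to -0.02) in the erythroid gate. Mrpl28 had 0.26 (0.02 to 0.52) in the HSC gate and -0.27 (-0.35 to -0.19) in the granulocyte-monocyte gate. Mrpl24 had 0.087 (0.004 to 0.17) in the granulocyte-monocyte gate and -0.31 (-0.60 to -0.03) in the lymphoid gate. These were 5 of the 76 members at 5 CPM (6.58%), against 3.83% of all 9154 genes and 5.4% of genes in the range of member levels. The difference between gates was not tested for any of them.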

How the results depend on the processing

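With 1 library per group, no library could be left out. No paired analysis was possible because each group holds a single library and no result comes from a test. Alternatives for the megakaryocyte gate were not run, since it held 38 cKO cells. The median member ratio, 0.17 as reported, ranged from 0.16 with equal cell limits to 0.28 by median of ratios, and was 0.27 by TMM. Its interval over members reflects the spread between genes and does not measure this dependence. Scaling moved the sums most. By TMM, median of ratios and a total without mitochondrial and ribosomal protein genes, the log2 ratio was 0.20, 0.21 and 0.19 for the large subunit, 0.22, 0.23 and 0.22 for the small subunit, 0.31, 0.31 and 0.23 in the HSC gate, 0.16, 0.15 and 0.14 in the lymphoid gate, 0.14, 0.16 and 0.17 in the granulocyte-monocyte gate and 0.18, 0.18 and 0.13 in the erythroid gate, and 16, 17 and 15 members were above 0.5. The cause was not tested for the values that follow. With each cell scaled before averaging, the large subunit had 0.14, the small subunit 0.14, the granulocyte-monocyte gate 0.14 and the erythroid gate 0.12. Thinning to 2000 UMIs gave 0.14 and 0.16 for the large and small subunit and 14 members above 0.5. Equal cell limits gave 0.092 for the large subunit and 0.021 in the erythroid gate. The large subunit had 0.094 without cells of other types and 0.093 with the same mix of gates, where 1 member, Mrps21, was below -0.5. A limit of 0.25 in place of 0.5 gave 30 members above and 4 below, and a limit of 1 gave 1 above. With at least 3 markers the lymphoid gate turned to -0.0030 and the granulocyte-monocyte gate had 0.052; gating on all UMIs gave 0.16 in the HSC gate, 0.16 in the lymphoid gate and 0.10 in the granulocyte-monocyte gate. Of 260 alternative values for single members, 97 moved beyond their counting interval and none with a reported ratio past 0.5 changed sign.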
